A study of Mus musculus with 6 samples.

Results

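Serpins are a superfamily of proteins that share 1 fold. Most members inhibit proteases by offering an exposed loop as bait: the protease cuts the loop, the serpin snaps into a more stable shape and the enzyme stays trapped. Clade a holds mainly secreted plasma proteins such as alpha-1-antitrypsin, the shield of the lung against neutrophil elastase. Clade b serpins lack a classical signal peptide and act mainly inside cells, where they guard epithelial and blood cells against their own or foreign proteases. A few members, among them maspin, neither inhibit proteases nor undergo the full shape change.

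The serpin genes examined here were all rows of the array whose annotation named exactly 1 gene with a symbol starting with Serpin. There were 48 such rows for 48 genes, of 19938 genes with 1 symbol on the array, and none of the 48 had a second row. By clade letter there were 15 genes in a, 24 in b, 2 each in f and i, and 1 each in c, d, e, g and h. Another 5 rows named several serpins at once and are described apart.

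Large proximal airways, cut out by hand from stained frozen sections of lung, were the source of the RNA, and the mice were 9 weeks old and of mixed C57BL/6 and 129X1 strain. In the 3 mutant samples the genotype was Scgb1a1-cre:Foxp1flox/flox:Foxp4flox/flox, and in the 3 control samples it was Scgb1a1-Cre, so both groups carried the driver. The Scgb1a1 promoter drives Cre in club cells, the secretory cells of the airway lining. Which other cells of these samples kept both forkhead genes was not measured. The labels give no alleles besides these for either group, and separate mice are not stated for the samples, so that the p-values reflect how far these samples differ, in part perhaps for technical reasons. In a bulk sample such as this, more cells of a type and more RNA per cell cannot be told apart.

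Each array gave log2 values with medians between 5.89 and 5.95. Scgb1a1 itself read 12.53, 12.58 and 12.50 on the mutant arrays and 12.41, 12.13 and 12.33 on the control arrays, so RNA of club cells was present in both groups. Foxp4 averaged 8.22 ± 0.40 (SD, n = 3) in mutants and 8.91 ± 0.13 in controls, and Foxp1 averaged 9.30 ± 0.05 in mutants and 9.53 ± 0.10 in controls. Both probe sets can include exons outside the floxed part. Both targeted genes lay below every control array in every mutant array, and neither passed limma's test (adjusted p = 0.339 and 0.444). Control 1 correlated more closely over all genes with the mutants (mean r = 0.981) than with the other controls (0.975).

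Among the 48 serpin genes the comparison of mutant with control airways, tested with limma over all genes, found 1 gene that rose, Serpinb5, and 0 that fell. Over all 19938 genes 0.236% were called higher and 0.0301% lower. At an unadjusted p under 0.05, 4 serpins were higher (Serpinb5, Serpinb10, Serpinb6b and Serpinb11) and 2 were lower (Serpinf1 and Serpini1), where 5.9% of all genes were higher, 4.17% lower and 10.1% either. The median log2 difference of the 48 genes was 0.06, beside 0.02 for all genes, and 36 of the 48 differed by less than 0.2 in size. Clade a spanned -0.20 to 0.18 around a median of 0.03, whereas clade b spanned -1.19 to 4.07 around a median of 0.06. All 6 serpins with a difference of at least 0.5 were in clade b, and 5 of these 6 were higher in mutants. Of all genes 6.16% had a difference of at least 0.5 in size. For Serpinb12 and Serpinb1a, which are among the 6, the groups overlapped.

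**Figure D1:**
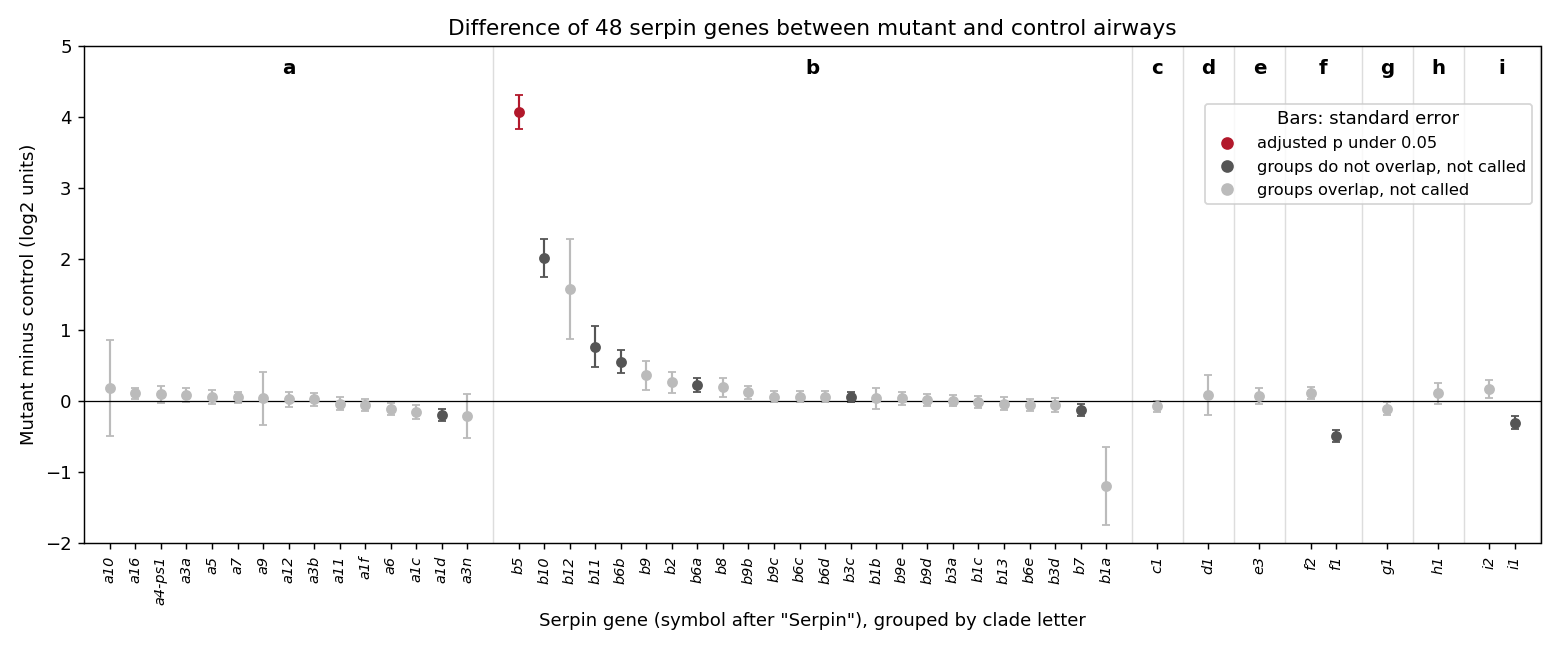
Log2 difference (mutant minus control, 3 arrays each) of each of the 48 serpin genes on the vertical axis, grouped by clade letter along the horizontal axis, with limma's standard error as bars. Serpinb5 at 4.07 is the only gene called; clade b spreads from -1.19 to 4.07 and clade a from -0.20 to 0.18.

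The mutant arrays lay wholly above the control arrays for 6 serpins and wholly below for 4, together 20.8% of the 48, whereas 9.33% of all genes lay wholly above, 5.64% wholly below and 15.0% either way. For 4 serpins, Serpinb5, Serpinb10, Serpinb11 and Serpinb6b, the separation went with a log2 difference of at least 0.5 upward, and for none downward. Of all genes 1.82% met both conditions upward, 1.26% downward and 3.08% either way. Low signal limits what most of the family can show. No detection calls were used here, and 31 of the 48 serpins averaged under 5 on the log2 scale, not far above the lower quartile of the arrays (4.42 to 4.50). Of these 31, 28 differed by less than 0.2. If the lowest 40% of genes by mean are set aside, 14 of the 48 serpins remain.

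Serpinb5 encodes maspin, an epithelial serpin that does not inhibit proteases and is best known from breast and stratified epithelia, where its loss accompanies tumour progression. Its probe set (10349108) read 8.88, 8.35 and 9.16 on the mutant arrays, against 4.97, 4.81 and 4.40 on the control arrays. The lowest mutant array thus stood well clear of the highest control array, and the controls lay near the lower quartile of the arrays. The means were 8.80 ± 0.41 in mutants and 4.73 ± 0.29 in controls (SD, n = 3 each), a log2 difference of 4.07 (SE 0.24), or 16.8-fold as measured (limma adjusted p = 0.00368). An exact two-sided permutation test gave p = 0.1, the smallest value that 3 against 3 arrays allow. Whichever single array was left out, the difference stayed between 3.89 and 4.29 and passed limma's test, with adjusted p from 0.00563 to 0.0483.

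Serpinb10, also called bomapin and described in human blood-forming cells, had the next largest difference of the family. It read 6.19, 5.48 and 6.37 in mutants, against 4.24, 4.11 and 3.64 in controls, and the groups did not overlap. The control values lie below the lower quartile of the arrays, so the log2 difference of 2.02 (SE 0.27) is as measured. It did not pass (limma adjusted p = 0.0581, exact permutation p = 0.1). It passed with array weights (adjusted p = 0.0078) and with an intensity trend (0.0240). Without control 1 the adjusted p was 0.0311 and without mutant 2 it was 0.0416. Leaving out any other single array gave adjusted p values from 0.214 to 0.238.

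Serpinb11, whose mouse protein inhibits trypsin, read 5.73, 4.55 and 4.84 in mutants and 4.26, 4.30 and 4.27 in controls. Every mutant array lay above every control array, but mutant 1 carried most of the difference of 0.77 (SE 0.29, limma adjusted p = 0.454). Serpinb12, an inhibitor of trypsin-like proteases, is named here after its values were seen, because it lies beside Serpinb5. It read 8.54, 5.96 and 7.01 in mutants against 5.54, 6.46 and 4.76 in controls, a log2 difference of 1.58 (SE 0.71, limma adjusted p = 0.533). Mutant 2 fell within the control range, so the groups overlapped. Mutant 2 was the lowest of the mutant arrays for each of Serpinb5, Serpinb10, Serpinb11 and Serpinb12, and among the mutant arrays it also had the lowest means of basal, squamous, goblet, ciliated and smooth muscle cell markers. The part of these cells in the 4 genes was not tested.

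These genes are neighbours. In the mouse assembly GRCm38.p6, 11 measured clade b genes lie in 1 uninterrupted run of serpins on chromosome 1, from Serpinb5 at one end through Serpinb12, Serpinb13, the Serpinb3 genes, Serpinb11, Serpinb7, Serpinb2 and Serpinb10 to Serpinb8 at the other. The 4 members with differences of at least 0.5 were not one block in this run: Serpinb5 and Serpinb12 are adjacent, but between Serpinb12 and Serpinb11 lie Serpinb13, a cathepsin L inhibitor in human, and the Serpinb3 genes, counterparts of the human squamous cell carcinoma antigens. Serpinb13, Serpinb3a, Serpinb3c, Serpinb3d and Serpinb7 stayed between 3.44 and 4.22 on every array and differed by -0.12 to 0.06. Serpinb2, which encodes the urokinase inhibitor PAI-2, averaged 4.64 ± 0.20 in mutants and 4.38 ± 0.22 in controls (difference 0.27, limma adjusted p = 0.636). Serpinb8, a furin inhibitor in human, averaged 6.96 ± 0.20 in mutants and 6.76 ± 0.15 in controls (difference 0.20, adjusted p = 0.701). The genes that flank the run, Vps4b beside Serpinb5 and Cdh7 beside Serpinb8, differed by 0.19 and -0.01. The median over the 11 genes was 0.20, and over the 13 clade b genes on chromosome 13 it was 0.06.

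**Figure D2:**
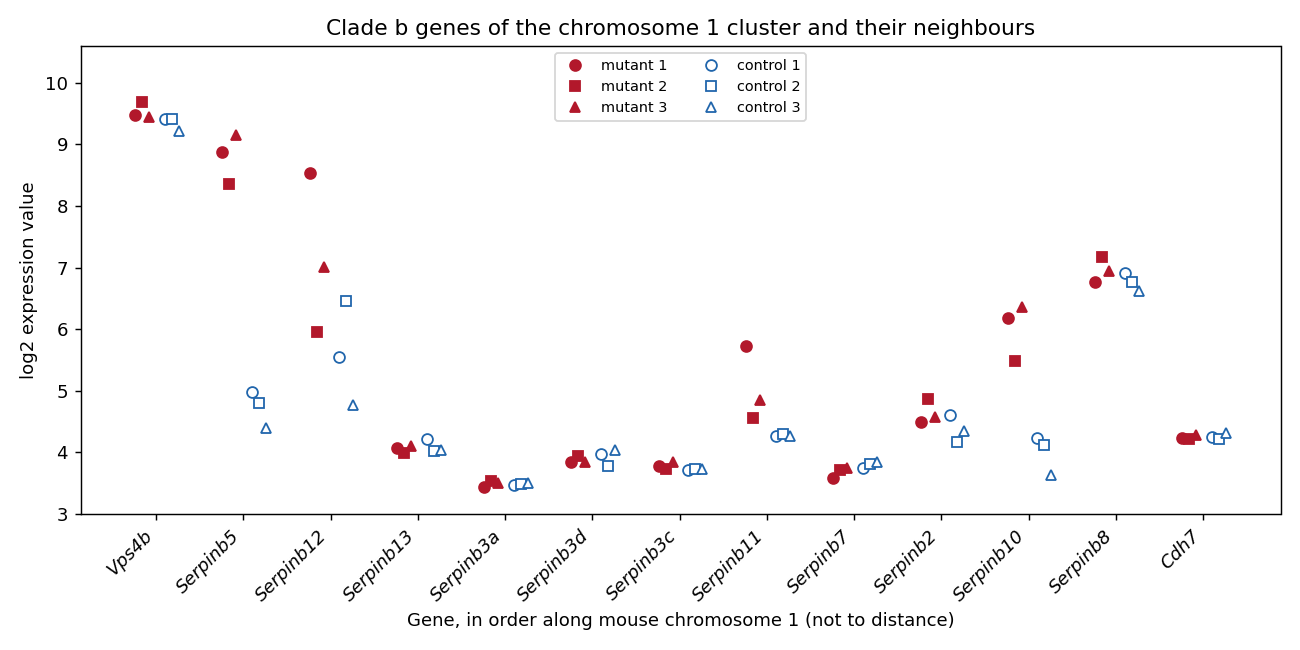
Log2 expression value on each of the 6 arrays (filled red, mutant; open blue, control) for the clade b genes of chromosome 1 and the gene on either side, in their order along the chromosome and not to distance. Mutant arrays stand apart from controls at Serpinb5 (8.35 to 9.16 against 4.40 to 4.97) and Serpinb10 (5.48 to 6.37 against 3.64 to 4.24), while Vps4b and Cdh7 differ by 0.19 and -0.01.

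The promoters of Serpinb5 and Serpinb10, the 2 members with the smallest p in this run, are shown because the mutation removes forkhead transcription factors and because the groups stood furthest apart at these 2 genes. Each is the 250 bases before the annotated RefSeq start in GRCm38.p6, on the plus strand, at chr1:106860925-106861174 and chr1:107528753-107529002. Capitals mark the letters TGANTCA, where N is any base. The consensus of AP-1 factors such as Fos and Jun is narrower, TGACTCA or TGAGTCA, and both promoters carry TGAATCA in its place.
Serpinb5: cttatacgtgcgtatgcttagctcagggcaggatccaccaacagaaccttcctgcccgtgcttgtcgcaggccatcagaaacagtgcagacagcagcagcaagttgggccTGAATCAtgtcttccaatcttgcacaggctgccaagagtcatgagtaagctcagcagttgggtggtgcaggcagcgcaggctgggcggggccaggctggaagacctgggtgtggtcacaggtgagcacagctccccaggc
Serpinb10: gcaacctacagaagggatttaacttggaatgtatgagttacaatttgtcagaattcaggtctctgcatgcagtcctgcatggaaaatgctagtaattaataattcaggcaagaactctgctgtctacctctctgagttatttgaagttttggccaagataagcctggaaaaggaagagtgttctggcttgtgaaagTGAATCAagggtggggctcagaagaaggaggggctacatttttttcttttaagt

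Promoter windows of 300 bases, with 250 before and 50 after the start, were on hand for 41 of the 48 serpin genes and 27025 genes in all. The forkhead letters TGTTTAC, searched on both strands, stood in the windows of 0 of the 41 serpin genes and of 4.05% of all genes. The variant TATTTAC stood in 2 of the 41, Serpinb12 and Serpinf2, and in 3.51% of all genes. TGANTCA, which reads the same on both strands and overlaps neither forkhead word, stood in 9 of the 41 serpin genes (22.0%) and in 8.97% of all genes. The AP-1 consensus, TGACTCA or TGAGTCA, stood in 4 of the 41 (Serpina1c, Serpina1d, Serpinb7 and Serpinb8; 9.76%) and in 5.95% of all genes. Of the 10 clade b genes on chromosome 1 with a window, 7 held TGANTCA: Serpinb5, Serpinb12, Serpinb11, Serpinb7, Serpinb2, Serpinb10 and Serpinb8. Of the 12 clade b genes on chromosome 13 with a window, 0 held it. Of these 7, Serpinb5 alone passed limma's test, and genes of a run that arose by duplication are not independent of each other. The motifs were chosen with earlier results known, and TGANTCA takes in the TGAATCA of Serpinb5 and Serpinb10, which the AP-1 consensus does not. These counts are therefore a description and test nothing about the genes that differed. The 27 bases around the match in the other 5 genes, with the match in capitals, are given for comparison. Serpinb11 holds a further match 181 bases before its start and Serpinb8 holds one 13 bases after its start. Serpinb2 and Serpinb12 each have windows at 2 annotated starts. The Serpinb2 match below lies 181 bases before its other start. In Serpinb12, TGANTCA and TATTTAC stand in the windows of different starts.
Serpinb12, 45 bases before the start: aaaaacaatcTGATTCAcgatcattat
Serpinb11, 76 bases before the start: ggtgaagagcTGAATCAtaacaacaca
Serpinb7, 45 bases before the start: agggagtgtcTGAGTCAgaggctttat
Serpinb2, 94 bases before the start: agtaaaatgtTGAATCAtacaaagaat
Serpinb8, 23 bases before the start: gtgggaagtgTGAGTCAcagagtgttc
The windows of Serpinb12, Serpinb11, Serpinb7, Serpinb2 and Serpinb8 lie on the plus strand at chr1:106934394-106934420, chr1:107362228-107362254, chr1:107422634-107422660, chr1:107511319-107511345 and chr1:107589973-107589999. A match in the letters is a description of the sequence and not of a bound site.

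Maspin is common in basal and squamous cells, so markers of both were set beside Serpinb5. Of 8 basal cell markers, 7 had a difference above 0 and none passed limma's test. Their mean log2 value was 8.02, 6.82 and 7.53 on the mutant arrays and 7.58, 7.06 and 6.46 on the control arrays, so the groups overlapped, with summed log2 values of 54.6 to 64.2 in mutants and 51.6 to 60.6 in controls. Of 8 squamous cell markers, 7 had a difference above 0 and none passed, with array means of 5.07 to 5.27 in mutants and 5.01 to 5.09 in controls and sums of 40.6 to 42.2 in mutants and 40.1 to 40.7 in controls. Club cell markers summed to 74.7 to 75.0 in mutants and 73.8 to 74.3 in controls, and 5 of 6 were higher in mutants without passing. Goblet cell markers summed to 57.5 to 62.9 in mutants and 55.2 to 60.0 in controls, all 6 with a difference above 0 and none called. Wholly above the controls lay 0 of the basal, 2 of the squamous, 3 of the club and 3 of the goblet cell markers. Of all genes 9.33% did so. No marker can be at 0 on this scale, which has no true zero. The part of basal, squamous, club and goblet cells in the Serpinb5 result was not tested.

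The clade b genes on chromosome 13 include the serpins that guard leukocytes and epithelia against neutrophil and lymphocyte proteases. None of the 13 passed limma's test, and 1 of them had an unadjusted p under 0.05. Serpinb6b, an inhibitor of granzyme A in the mouse, read 9.70, 10.11 and 9.70 in mutants, against 9.48, 9.07 and 9.28 in controls. The groups did not overlap, and the difference was 0.56 (SE 0.16, limma adjusted p = 0.329). Its neighbour in the subfamily, Serpinb6a, counterpart of the human cathepsin G inhibitor PI-6, had mutant values of 10.42, 10.62 and 10.54 and control values of 10.38, 10.36 and 10.17. These also did not overlap, by a narrow margin (difference 0.22, SE 0.10, adjusted p = 0.526). Serpinb9, the granzyme B inhibitor of cytotoxic cells, averaged 7.76 ± 0.41 in mutants and 7.39 ± 0.09 in controls. Mutant 2 alone, at 8.23, stood apart, and the difference of 0.37 did not pass (SE 0.20, adjusted p = 0.627). Mutant 2 was the highest array for Serpinb6b, Serpinb6a and Serpinb9, and macrophage and neutrophil markers also had their highest mean there (9.74, against 9.05 to 9.44 on the other 5 arrays). The sums of these 7 markers were 63.4 to 68.2 in mutants and 64.3 to 66.1 in controls, and 4 of the 7 had a difference above 0. Alveolar type 2 cell markers averaged 11.57, 11.66 and 11.54 in mutants and 11.31, 11.09 and 11.32 in controls, without overlap and highest in mutant 2. All 6 had a difference above 0 and none was called. Of these 6 markers, 4 lay wholly above the controls, as did 9.33% of all genes. Their sums were 69.2 to 69.9 in mutants and 66.6 to 67.9 in controls. Fibroblast and endothelial cell markers also had their highest means in mutant 2 (9.06 and 9.63). The part of any of these cells in the values of Serpinb6b, Serpinb6a and Serpinb9 was not tested.

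Serpinb1a, the mouse form of the leukocyte elastase inhibitor that blocks neutrophil elastase, cathepsin G and proteinase 3, was the serpin with the lowest difference. It read 7.63, 7.97 and 7.87 in mutants, against 7.73, 10.08 and 9.24 in controls. Controls 2 and 3 stood above all other arrays, and control 1 lay among the mutants. The log2 difference of -1.19 (SE 0.55) did not pass limma's test (adjusted p = 0.545). Without control 1 it was -1.84 and passed (adjusted p = 0.0322), and without control 2 it was -0.66 (adjusted p = 0.868). Over all genes 388 passed without control 1, where 53 passed with all arrays. Markers of B and plasma cells were also highest in controls 2 and 3: the 6 measured averaged 5.51, 7.81 and 5.78 in mutants and 6.16, 9.60 and 9.32 in controls, all 6 with a difference below 0 and none called. Their sums were 33.0 to 46.9 in mutants and 37.0 to 57.6 in controls. The 7 T and NK cell markers averaged 5.98, 6.86 and 5.93 in mutants and 6.32, 7.86 and 7.77 in controls, with sums of 41.5 to 47.99 in mutants and 44.2 to 55.1 in controls. Of these 7, 1 had a difference above 0. Slpi, the secreted leukocyte protease inhibitor of mucosal epithelia, read 7.95, 8.03 and 8.04 in mutants, against 8.39, 10.73 and 9.22 in controls. Macrophage and neutrophil markers had another order, with means of 9.05, 9.74 and 9.10 in mutants and 9.44, 9.19 and 9.41 in controls. They were highest in mutant 2, and control 2 was the lowest control. The part of lymphoid cells, macrophages and neutrophils in the Serpinb1a values was not tested.

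**Figure D3:**
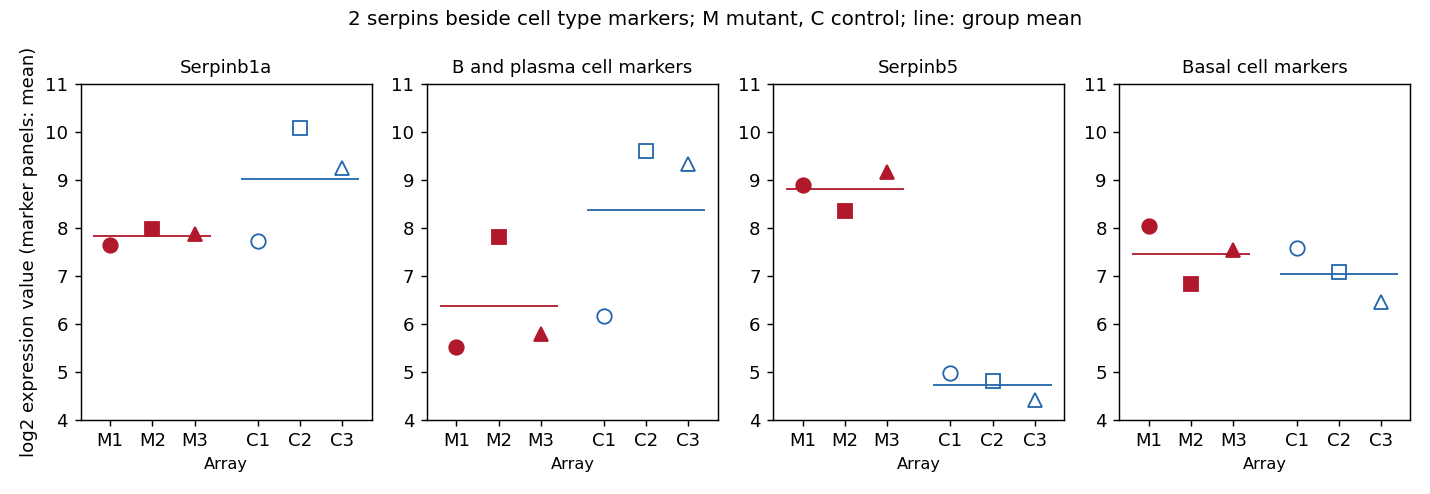
Log2 value on each array (M1 to M3, mutant; C1 to C3, control; horizontal line, group mean) for Serpinb1a, the mean of 6 B and plasma cell markers, Serpinb5, and the mean of 8 basal cell markers, on a shared vertical scale. Controls 2 and 3 stand high for both Serpinb1a and the B and plasma cell markers with control 1 among the mutants, whereas Serpinb5 separates all 3 mutants (8.35 to 9.16) from all 3 controls (4.40 to 4.97).

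The rest of the chromosome 13 genes read low and flat. Serpinb1b and Serpinb1c differed by 0.04 and -0.01. Serpinb6c, Serpinb6d and Serpinb6e differed by 0.07, 0.06 and -0.05, and Serpinb9b, Serpinb9c, Serpinb9d and Serpinb9e by 0.02 to 0.12. These 9 genes lay between 3.50 and 5.18 on every array. Another 3 rows, each annotated to 4 Serpinb9 paralogs, differed by 0.02 to 0.07 with overlapping groups. Paralogs of the Serpinb6 and Serpinb9 subfamilies are similar in sequence, so values of single members are uncertain where probes could cross-hybridise.

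Clade a showed no called gene among 15, and 0 with an unadjusted p under 0.05. Serpina3n, an acute phase serpin that inhibits granzyme B and cathepsin G, read 10.70, 10.74 and 10.27 in mutants, against 10.06, 11.17 and 11.10 in controls. Control 1 was the lowest array and controls 2 and 3 the highest, so the difference of -0.20 (SE 0.31, limma adjusted p = 0.902) was smaller than the SD of the controls (0.62). Single arrays decide its size: it was -0.56 without control 1 (adjusted p = 0.195), -0.0080 without control 2, -0.042 without control 3 and -0.052 without mutant 3. Serpina9, known in human from germinal centre B cells, read 9.14, 8.17 and 9.33 in mutants and 8.75, 9.42 and 8.36 in controls. Its difference was 0.04 (SE 0.38, limma adjusted p = 0.986), with mutant 2 the lowest array and control 2 the highest. B and plasma cell marker means were also highest in control 2 but lowest in mutants 1 and 3. Ciliated cell markers averaged 9.28, 8.64 and 9.43 in mutants and 9.27, 9.43 and 9.11 in controls. These means too were lowest in mutant 2, but control 2 and mutant 3 shared the highest value of 9.43. Of the 6 ciliated markers, 1 had a difference above 0 and none was called. The part of B cells and ciliated cells in the Serpina9 values was not tested. Serpina10, the protein Z-dependent inhibitor of coagulation factor Xa, ranged from 6.34 to 7.45 in mutants and from 5.16 to 7.77 in controls, the widest control spread of the family (SD 1.37).

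Alpha-1-antitrypsin, the main plasma inhibitor of neutrophil elastase, is encoded in the mouse by several nearly identical Serpina1 genes. Serpina1d, the clade a gene with the smallest p, read 4.11, 3.97 and 4.08 in mutants against 4.15, 4.27 and 4.31 in controls (difference -0.19, SE 0.09, limma adjusted p = 0.534). The groups did not overlap, at values below the lower quartile of the arrays. Serpina1c differed by -0.15. Both rows annotated to all 5 of Serpina1a, Serpina1b, Serpina1c, Serpina1d and Serpina1e were also lower in mutants. Row 10402409 read 5.11, 4.92 and 5.11 in mutants against 5.30, 6.54 and 6.18 in controls (difference -0.96). Row 10402399 read 4.28, 4.19 and 4.26 in mutants against 4.65, 4.77 and 5.12 in controls (difference -0.60). In neither row did the groups overlap, and an exact two-sided permutation test gave p = 0.1 for each, its smallest value. Rows with several symbols were not part of the limma fit, and probes shared by the 5 genes make these rows overlapping measurements. Controls 2 and 3 were again the highest arrays in both.

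The other clade a genes include serpins that carry hormones rather than inhibit proteases. Serpina6, corticosteroid-binding globulin, and Serpina7, thyroxine-binding globulin, differed by -0.11 and 0.06. The protein C inhibitor gene Serpina5 differed by 0.06 and the vaspin gene Serpina12 by 0.03. Serpina11, Serpina16, Serpina1f, Serpina3a, Serpina3b and the pseudogene Serpina4-ps1 differed by -0.05 to 0.11. Of the 12 clade a genes other than Serpina3n, Serpina9 and Serpina1d, 11 differed by 0.15 or less in size, and Serpina10 by 0.18.

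Among the small clades, Serpinf1 showed the most uniform difference. It encodes PEDF, a secreted serpin without protease inhibition that restrains blood vessel growth. The mutant arrays read 9.45, 9.50 and 9.49, and the control arrays read 10.05, 9.98 and 9.88. The groups did not overlap, and both were tight, with means of 9.48 ± 0.03 in mutants and 9.97 ± 0.09 in controls (SD, n = 3 each). The log2 difference of -0.49 (SE 0.08) did not pass over all genes (limma adjusted p = 0.107, exact permutation p = 0.1). With array weights it passed (adjusted p = 0.0426). In every other alternative it did not pass, with limma adjusted p from 0.0729 to 0.424. Serpinf2, which encodes the plasmin inhibitor alpha-2-antiplasmin and is the next gene on chromosome 11, differed by 0.11 in the other direction (adjusted p = 0.737). Of 6 fibroblast markers, a cell type that makes PEDF, 4 had a difference above 0 and 2 below, Lum (-0.72) and Dcn (-0.29), and none was called. Their array means were 8.79 to 9.06 in mutants and 8.74 to 8.98 in controls, with sums of 52.8 to 54.3 in mutants and 52.5 to 53.9 in controls. The part of fibroblasts in the Serpinf1 values was not tested.

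Serpini1, neuroserpin, an inhibitor of tissue plasminogen activator in neurons, read 4.76, 4.90 and 4.75 in mutants against 5.01, 5.11 and 5.20 in controls. The groups did not overlap, and the difference of -0.30 (SE 0.09) did not pass (limma adjusted p = 0.348). Of 6 neuron markers, 5 had a difference below 0 and none was called. Their array means were 5.65 to 5.77 in mutants and 6.51, 5.60 and 5.69 in controls. Control 1 alone stood high for these markers, and it was the lowest control array for Serpini1. The marker sums were 33.9 to 34.6 in mutants and 33.6 to 39.1 in controls. The part of neurons in the Serpini1 values was not tested. Its clade partner Serpini2, known from the pancreas, differed by 0.17 (adjusted p = 0.717).

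Serping1, the C1 inhibitor of the complement and kinin systems, read 11.48, 11.61 and 11.37 in mutants and 11.64, 11.58 and 11.56 in controls, with a difference of -0.10 (SE 0.09, limma adjusted p = 0.782). Serpinh1, the collagen chaperone HSP47 of the endoplasmic reticulum, read 8.99, 9.04 and 8.97 in mutants and 9.18, 8.59 and 8.89 in controls (difference 0.11, SE 0.15, adjusted p = 0.886). The groups overlapped for both genes. The coagulation serpins Serpinc1, antithrombin, and Serpind1, heparin cofactor II, differed by -0.07 (adjusted p = 0.854) and 0.09 (adjusted p = 0.960). Serpinc1 read 4.67, 4.62 and 4.64 in mutants and 4.80, 4.64 and 4.70 in controls, and Serpind1 read 6.30, 6.57 and 5.97 in mutants and 5.95, 5.85 and 6.79 in controls. Serpine3 read 5.46, 5.44 and 5.47 in mutants and 5.59, 5.19 and 5.37 in controls (difference 0.07, adjusted p = 0.902).

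**Figure D4:**
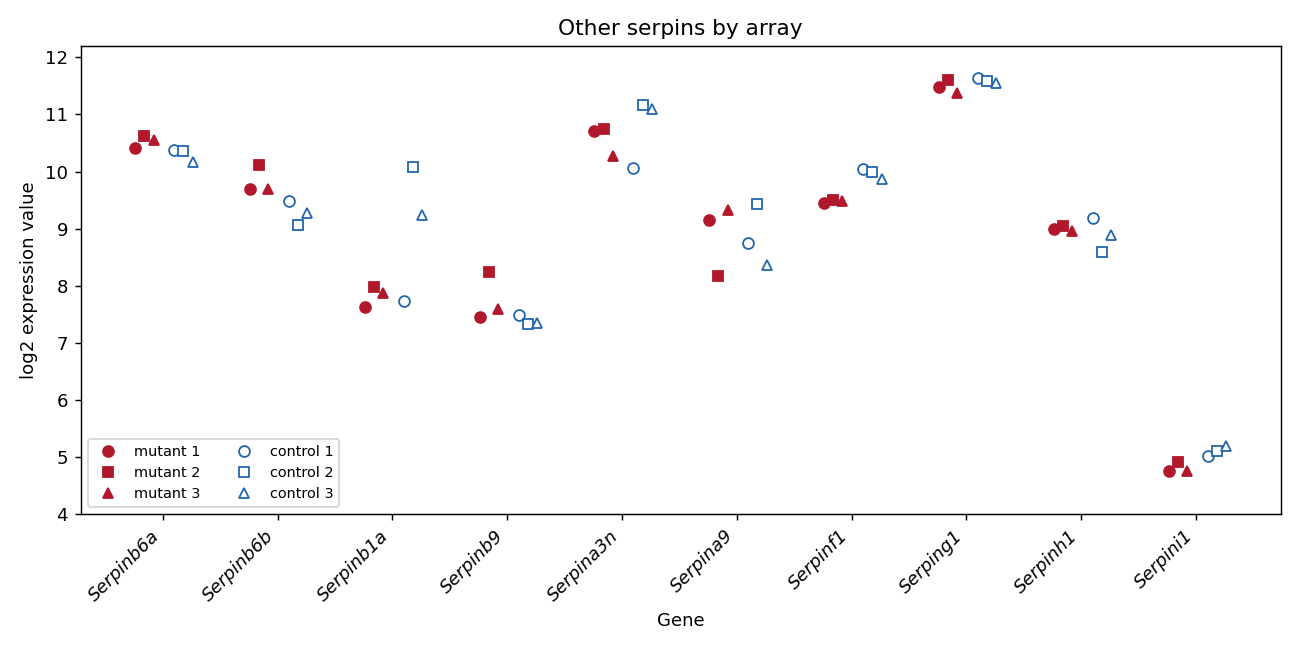
Log2 expression value on each of the 6 arrays (filled red, mutant; open blue, control) for 10 serpins outside the chromosome 1 run. Serpinf1 (9.45 to 9.50 against 9.88 to 10.05) and Serpini1 (4.75 to 4.90 against 5.01 to 5.20) lie wholly below the controls without passing the test, Serpinb6b (9.70 to 10.11 against 9.07 to 9.48) lies wholly above, and control 1 lies with the mutants for Serpinb1a.

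The proteases that serpins restrain were examined as a list of 44 genes, of which 40 were measured. The gene of the pancreatic elastase Cela2a rose, and 0 of the 40 fell. Its mutant values were 8.73, 8.92 and 9.43, against 6.12, 6.04 and 6.04 in controls, a log2 difference of 2.96 (SE 0.18, limma adjusted p = 0.00368). The list's median was 0.03, with 22 of 40 above 0, beside 0.02 and 54.6% for all genes. Next by p came the kallikrein gene Klk8, with a difference of -0.67 (adjusted p = 0.292), and the prothrombin gene F2, with 0.62 (adjusted p = 0.345). At an unadjusted p under 0.05, 5 of the 40 were higher and 1 was lower, where 5.9% of all genes were higher and 4.17% lower. By limma's adjusted p, 0.236% of all genes were called higher and 0.0301% lower.

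Of 25 measured protease inhibitors outside the serpin family, limma called 0, and at an unadjusted p under 0.05, 1 was higher and 3 were lower. Of all genes 0.266% were called, and 5.9% were higher and 4.17% lower at that unadjusted p. The list's median was -0.01. Itih2, a heavy chain of the inter-alpha-trypsin inhibitor, read 6.80, 6.99 and 6.70 in mutants and 7.72, 8.08 and 8.30 in controls, without overlap (difference -1.20, limma adjusted p = 0.0610). Pzp, a broad protease trap of the alpha-2-macroglobulin family, differed by 0.62 (adjusted p = 0.204), and Slpi by -1.44 (adjusted p = 0.454).

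Receptors, cofactors and clients of serpins made up a list of 18, of which 16 were measured. Lrp2, the endocytic receptor megalin, rose, with mutant values of 7.20, 7.46 and 7.31 against 6.49, 6.44 and 6.30 in controls (log2 difference 0.91, SE 0.10, limma adjusted p = 0.0306), and 0 of the 16 fell. That call was lost when mutant 1, mutant 2, mutant 3, control 2 or control 3 was left out, with adjusted p from 0.0753 to 0.175. The vitronectin gene Vtn, whose protein binds the plasminogen activator inhibitor, differed by -0.46 (adjusted p = 0.442), and the collagen gene Col3a1, a client of HSP47, by 0.33 (adjusted p = 0.395). This list's median was 0.04, with 8 of 16 above 0, beside 0.02 and 54.6% for all genes. Of all genes 0.236% were called higher and 0.0301% lower. At an unadjusted p under 0.05, 2 of the 16 were higher and 1 was lower, where 5.9% of all genes were higher and 4.17% lower.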

How the data were processed

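Expression was measured on 6 Affymetrix mouse gene arrays, 3 mutant and 3 control, grouped by their titles. Each deposited table row holds a probe set's log2 value on the 6 arrays. The tools named by the submitters' processing notes are oligo, RMA and limma, with no version. RMA makes differences between dim probe sets smaller than they are. No detection call, scan date or scanner file was used here, which leaves any batch untested.

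The platform annotation named 1 gene for 21789 of 35556 rows. The highest-mean row per gene gave 19938 genes, and all 48 serpins were found in the reference gene table of GRCm38.p6, which served for gene order and promoters. limma 3.58.1 (R 4.3.3; lmFit and eBayes, genotype as the term, unfiltered, two-sided) was fitted to all genes, with Benjamini-Hochberg adjustment and a threshold of 0.05. Standard errors are limma's moderated ones, and the procedure was tested on simulated data. The number of arrays, 3 per group, limits the precision.

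Serpins described in full were those called, the smallest p of each clade, those whose groups did not overlap with a difference of at least 0.5, and the 10 with the highest mean. From each list of related genes, the called genes and the 3 with the smallest p were named. The members, lists and motifs were chosen with earlier results of these data known. Alternatives were quantile normalisation once more, median centring, dropping the lowest 40% of genes, a replicate block, array weights, averaging each gene's rows, an intensity trend, robust eBayes, and leaving out each array. Leaving out control 1 with mutant 2 was added after seeing the data. Tables and figures were made in Python 3.11.15 with pandas 2.3.3 and matplotlib 3.10.9.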

Additional observations from a re-analysis of the deposited data

How the results depend on the processing

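The call on Serpinb5 held in each alternative except the replicate number as a block (log2 difference 4.07, adjusted p = 0.0866), where 0 genes of any kind were called, serpins, proteases and receptors included (0 at each). Serpinb10 had an adjusted p of 0.264 there and from 0.0024 to 0.264 over the alternatives that kept it. The lowest of these came from leaving out control 1 with mutant 2, which was added after seeing the data. Dropping the lowest 40% of genes removed Serpinb10 and Serpinb11. Whether same-numbered samples were paired is not stated in the labels. Same-numbered deviations from the group means correlated at 0.14, -0.09 and -0.04. Mutant 1 correlated best with control 1 (0.14) and mutant 2 with control 3 (0.18). With 3 arrays per group, such weak correlations cannot decide whether the samples were paired. The 48 serpins gave 1 gene called higher and 0 lower. With array weights these became 2 and 1, and with an intensity trend 2 and 0. Leaving out single arrays gave 1 to 2 higher and 0 to 1 lower. The cause of these shifts was not tested. Without control 1 and mutant 2 together, chosen after seeing the data, 2 were higher and 1 lower. Over all genes 53 were called, 291 with array weights, 82 with an intensity trend, 9 to 388 without single arrays, and 963 without control 1 and mutant 2. Proteases called were 1, with 3 under array weights, 1 to 2 without single arrays and 4 without control 1 and mutant 2. Other inhibitors called were 0, with 1 without the lowest 40% of genes, 2 under array weights, 1 under an intensity trend, 0 to 2 without single arrays and 3 without control 1 and mutant 2. Receptors and clients called were 1, and 0 to 1 without single arrays. Serpin and clade b medians were 0.15 and 0.37 without the lowest 40% of genes, which left 14 and 7 members. The clade b median was 0.11 without control 1 and mutant 2 and 0.049 to 0.10 without single arrays. The clade a median ran from -0.039 to 0.080 without single arrays. Of the 18 serpins described in full, 4 changed sign in some alternative, and none of the 4 passed the test: Serpind1 (-0.33 with array weights, -0.18 without control 1 and mutant 2, -0.09 to 0.38 without single arrays), and, without single arrays, Serpina9 (-0.20 to 0.39, and 0.48 with array weights), Serpine3 (-0.024 to 0.18) and Serpinh1 (-0.036 to 0.26). Signal near the lower quartile limits most clade a and b genes.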
